A study of Mus musculus with 12 samples.

Results

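The cytosolic ribosomal protein genes encode the proteins of the ribosome that translates the mRNAs of the nuclear genome. They were taken as every gene of the count table with a symbol of Rpl or Rps and a number, a closing a, x, y or l and a further digit being allowed, together with Rplp0, Rplp1, Rplp2 and Rpsa. Symbols ending in -ps and Gm names were left out. The rule used no measured value and found 89 of 56691 genes, of which 53 belong to the large and 36 to the small ribosomal subunit. Of these, Rps12l1 had 0 counts in every library, and with it 6 had a mean under 100 counts, which leaves 83 genes for the descriptions that need well-counted genes. In the GENCODE M21 annotation 6 of the 89 (Rpl32l, Rpl6l, Rps12l1, Rps3a2, Rps3a3 and Rps4l) are processed pseudogenes, so their counts may hold reads of the parent gene. In each library 7.7 to 9.95 further counts per 100 member counts fell on the 300 genes named as ribosomal protein pseudogenes.

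A ribosome is built from a large and a small subunit, each a scaffold of ribosomal RNA dressed with many proteins that are needed in equal numbers, and most cells keep the mRNAs of these proteins at high and coordinated levels. Many of these mRNAs begin with a C followed by a run of pyrimidines, the terminal oligopyrimidine tract through which their translation is controlled as a class. A growing mouse oocyte makes and stores ribosomes and mRNA. Transcription then falls silent in the full-grown oocyte, and during meiotic maturation a large part of the stored mRNA is removed.

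RNA came from oocytes of WT and Alkbh5-/- (KO) mice. ALKBH5 removes the methyl mark of N6-methyladenosine from RNA, and the KO was a total knockout in which the exon with the start codon had been deleted by CRISPR-Cas9, so that every cell of the animal, follicle cells included, lacked the gene. Per the methods, 3-week-old females on a C57BL/6 background were primed with PMSG, GV oocytes were collected 44 h later, and pools of oocytes were taken at 0, 4 and 16 h of culture as the germinal vesicle (GV), germinal vesicle breakdown (GVBD) and metaphase II (MII) samples. The study also describes that most KO oocytes did not complete maturation, and whether KO oocytes were picked by stage before pooling is not given in the sources used here, so genotype and stage cannot be told apart in the KO GVBD and KO MII pools.

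Each of the 6 groups had 2 libraries, with 28557742 to 40247810 counts each. Synthetic ERCC RNAs added to each tube took 221927 to 838409 of these counts, and levels are given below as spike-in scaled counts, that is, counts divided by the ERCC total of the library relative to the mean ERCC total. The study describes the libraries of a group as biologically independent, the labels do not say from how many animals each pool came, and p-values measure only the spread between these libraries. By the methods RNA was captured by its poly(A) tail, while the sample labels describe another preparation, so less RNA per oocyte, fewer oocytes in a pool and shorter tails cannot be told apart in a lower count. Alkbh5 had 5355 to 10181 counts in the WT and 54 to 143 in the KO libraries. All 12 oocyte markers found in the table (of 13 listed) were detected in every library, at a sum of 15900 to 35400 CPM, the counts scaled to a common library total. The 13 cumulus and granulosa cell markers summed to 146 to 460 CPM, most of it Serpine2 and Cyp19a1, with Amh at 0 in 11 of 12 libraries and Foxl2 at 0 in 10. Blood markers varied far more. They summed to 28.9 and 3370 CPM in the WT GV libraries, 1990 and 1790 at WT GVBD, 14.4 and 43.5 at WT MII, 1900 and 3210 at KO GV, 9.99 and 17.7 at KO GVBD, and 567 and 4.86 at KO MII.

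The start sites of a few members show the tract that the class is known for. Of 64 members in the RefSeq promoter table (GRCm38.p6), 14 (21.9%) had an annotated start that is a C followed by at least 4 further C or T, against 3.01% of all 27025 genes in that table. Such a tract began within 10 bases of the start in 62.5% of the members and 34.4% of all genes. The 5 windows of 30 bases shown here run from 10 bases before the start through its first 20 bases, read 5′ to 3′ on the strand of the gene, with the longest pyrimidine run in capitals. Rps27 and Rps15a are shown because their tracts are alike and their courses were far apart, Rpl35 because it was the most abundant member, and Rpl39 and Rpl5 because they differed between KO and WT at MII.
Rps27: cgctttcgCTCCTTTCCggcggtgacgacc
Rps15a: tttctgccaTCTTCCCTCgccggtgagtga
Rpl35: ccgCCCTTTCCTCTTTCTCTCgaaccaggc
Rpl39: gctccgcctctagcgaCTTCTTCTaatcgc
Rpl5: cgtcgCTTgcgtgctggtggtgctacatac
These windows lie at chr3:90213629-90213658 on the minus strand (Rps27), chr7:118116128-118116157 on the minus strand (Rps15a), chr2:39005112-39005141 on the minus strand (Rpl35), chrX:37085203-37085232 on the minus strand (Rpl39) and chr5:107900518-107900547 on the plus strand (Rpl5). The run of Rps27 had 9 pyrimidines and that of Rps15a also 9, both reaching across the annotated start, whereas the run of Rpl39 began at base 7 of the transcript and Rpl5 had none longer than 3 in its window. Rps27a and Rpl30 were not in the table.

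In GV oocytes the members were abundant and their levels were widely spread. Together they took 2.61 and 2.23% of the endogenous counts of the WT GV libraries and 2.1 and 2.11% in KO GV. Per kilobase of exon, Rpl35, a protein beside the exit tunnel of the large subunit, stood highest in WT GV with 83530 and 74270 spike-in scaled counts. The length joins all annotated exons of a gene and can exceed that of the mRNA present. For Rpl39 it was 1434 bases, against 612 in the longest transcript, so ranks and spreads on this scale depend on the annotation. Rpl19 followed with 52930 and 37880, and Rpl37 with 38170 and 23620 and Rpl26 with 30290 and 30460 were also near the top. Rpl35 lay above these in both libraries, while the ranges of Rpl37 and Rpl26 overlapped, so their order is not resolved. At the other end were Rps4l (176 and 178), Rps3a2 (52.4 and 196), Rpl10l (4.64 and 23.4), Rpl3l (0 and 7.73) and Rps12l1, which was listed at 0. Between the 83 well-counted members the highest level per kilobase exceeded the lowest 446-fold in WT GV on this scale.

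This order was held at GV and GVBD more than at MII. Across the 83 genes the log2 level per kilobase correlated with that of WT GV at r = 0.98 in KO GV, 0.97 in KO GVBD, 0.91 in WT GVBD, 0.84 in KO MII and 0.8 in WT MII. These are descriptions over genes that share their libraries. The ratio of the highest to the lowest member widened to 1040 in WT and 903 in KO MII oocytes. Rps15a, a small subunit protein, took the largest part of all member counts in WT MII, 14 and 13.5%, a place that Rpl35 held at GV in all 4 libraries with 9.38 to 10.4%.

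**Figure D1:**
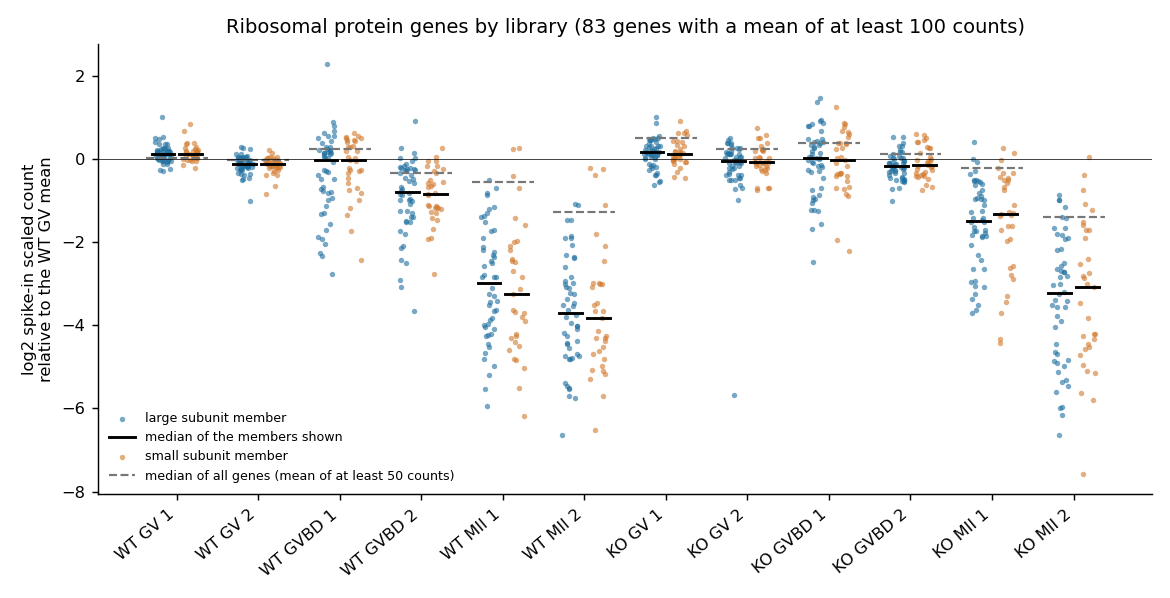
Log2 spike-in scaled count of each of the 83 members with a mean of at least 100 counts, relative to its mean over the 2 WT GV libraries (vertical axis), in each of the 12 libraries (horizontal axis), with blue points for the large and orange points for the small subunit. Black bars are medians of the points of each subunit and dashed lines the median of all 13273 genes whose mean reached 50 counts. In both WT MII libraries the members lie far below the dashed line and are spread over several log2 units, and in both KO MII libraries they lie nearer to it. Over the 88 detected members the median less that of all genes was -2.32 and -2.36 in WT MII, -1.21 in KO MII 1 and -1.74 in KO MII 2.

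From GV to MII in WT oocytes nearly the whole class fell. By edgeR's quasi-likelihood test 78 of 86 tested members were lower at MII (adjusted p under 0.05 and at least 2-fold) and 0 were higher. Among all 18816 genes tested 30.5% were called lower and 0.393% higher. The median log2 fold change was -3.25 over the members against -1.06 over all genes, and 82 of 86 members had both MII libraries below both GV libraries, as had 58% of all genes. The remaining level of the 83 well-counted members ranged from 1.21 to 100% of GV with a median of 9.13%. As a share of endogenous counts, a measure without spike-ins, the members fell to 0.587 and 0.614%. TMM scaling, which centres the bulk of genes, moved the median of all genes to -0.14 and that of the members to -2.38, which leaves nearly the same distance between them (-2.19 and -2.24), with 67 members called lower, against 16.2% of all genes.

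Rps27a, which encodes a small subunit protein fused to ubiquitin, was reduced most. Its spike-in scaled counts were 29602 and 21678 in WT GV, 20697 and 16822 in the WT GVBD pair and 349 and 273 in the WT MII pair, so the GVBD libraries stood little below the GV libraries and the fall lay between GVBD and MII. The log2 fold change from GV to MII was -6.37 (SE 0.58, edgeR adjusted p = 3.85e-25). Rpl30 had 10097 and 8584 at GV and 152 and 180 at MII, with a log2 fold change of -5.81 (SE 0.58, edgeR adjusted p = 1.06e-20). Rps15, a small subunit protein near the decoding site, took another course, with 16002 and 6440 in GV oocytes, 1881 and 1491 already by GVBD and 222 and 196 by MII. It fell by 5.75 on the log2 scale (SE 0.58, edgeR adjusted p = 1.28e-20). Rpl26 stood at 43746 and 43988, then 61985 and 36377, then 940 and 811, which is -5.65 from GV to MII (SE 0.54, edgeR adjusted p = 1.53e-22). In all 4 genes both MII libraries lay far below every GV and GVBD library, and of the 4 Rps15 was the one that stood far below its GV level at GVBD. The called members with the smallest falls were Rpl6l (-1.58, edgeR adjusted p = 0.0097), Rpl32 (-1.49, edgeR adjusted p = 0.00586), Rpl34 (-1.48, edgeR adjusted p = 0.00914) and Rpl41 (-1.27, edgeR adjusted p = 0.0183).

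A few members kept much of their level, although not every member that was not called did. Among those not called were Rps3a2, Rplp2, Rplp1, Rpl22, Rps28, Rps15a and Rps27l, with log2 fold changes from -2.03 to 0.01. Rps3a2, a processed pseudogene with a mean of 66.8 counts, went from 41.5 and 155 to 23.9 and 24.1 spike-in scaled counts. For Rps15a the spike-in scaled counts were 23006 and 18332 in GV, 21130 and 19916 in GVBD and 24258 and 15739 in MII oocytes. Rps27l, a paralog of Rps27, had 11734 and 8174, then 9454 and 5385, then 11733 and 8268. The stages overlapped in both genes, and their log2 fold changes from GV to MII were -0.05 (SE 0.44) and 0.01 (SE 0.46). The acidic stalk proteins Rplp1 and Rplp2, which recruit translation factors, had changes of -1 (SE 0.52) and -1.06 (SE 0.52), whereas Rplp0, to which they bind, fell by 3.12 on the log2 scale from 10722 and 6538 to 1168 and 816. Rpsa, the small subunit protein also known as a laminin receptor, went from 1323 and 1780 to 357 and 180. Over the tested members the 10th and 90th percentiles of the log2 change were -4.99 and -1.49, and the SD was 1.4 against 1.76 over all genes.

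The order of the members' changes recurred in separate libraries. Between the pair of first-numbered and the pair of second-numbered libraries, which share no library, the GV to MII change of the 83 genes correlated at r = 0.87, and the SD over these genes of the difference between the 2 libraries of a group was 0.43 at WT GV and 0.48 at WT MII. Neither exon length (r = -0.1) nor GC content of the longest transcript (r = 0.12) nor mean count (r = -0.1) followed the WT change across the 83 genes, while over all genes length did so weakly (r = 0.3, n = 10847). Members whose annotated start was a C with at least 4 pyrimidines had a median log2 change of -3.18 (n = 14) and those without -3.38 (n = 48). Where such a tract began within 10 bases of the start the median was -3.74 (n = 38) and otherwise -2.97 (n = 24), so the order of the medians turned with the window.

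Rpl41, one of the smallest ribosomal proteins, took a course of its own among the called members. Its spike-in scaled counts were 52874 and 13029 at the GV stage, 3823 and 2094 by GVBD and 14994 and 12378 by MII in WT, so it was lowest at GVBD and both MII libraries stood above both GVBD libraries. It was the 1 member called higher from GVBD to MII, with a log2 fold change of 2.21 (SE 0.65, edgeR adjusted p = 0.0044), where 0.682% of 19211 genes were called higher. In that comparison 63 of 88 members were called lower, against 27.1% of all genes, at a median of -2.64. With WT GVBD library 1 left out the median was -2.38 and with library 2 left out -2.98, and the call of Rpl41 rests on both GVBD libraries. Without WT MII library 1 the median was -3.17 and without library 2 it was -2.33. The second WT GV library itself was lower than the first by 2.02 on the log2 scale for Rpl41, and KO GV held 18039 and 515, the widest gap between the 2 libraries of a group on the log2 scale among well-counted members (5.13). Rps2 (log2 -1.73), Rps14 (-1.95) and Rpl17 (-1.99) were the called members with the smallest falls after GVBD, and Rps27a (-5.92), Rpl26 (-5.81), Rpl21 (-5.7) and Rpl30 (-5.63) those with the largest. Rps28, at 311 and 255 at GVBD and 465 and 525 at MII, had a change of 0.81 that was not called.

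In KO oocytes the fall from GV to MII was smaller in the median than in WT. By edgeR 16 of 86 members were called lower and 0 higher, against 3.28% of 18777 genes lower and 0.00533% higher, with a median of -2.17 for the members and -1.17 for all genes. Other settings called over 3 times as many, 51 with DESeq2 (16.3% of all genes), 50 without the filter on low counts (9.22%) and 49 with all 12 libraries in 1 fit (13.3%). Their share of endogenous counts was 2.06 and 2.14% in KO GVBD and 1.14 and 0.72% in KO MII. The 83 well-counted members kept 3.43 to 98% of GV with a median of 21.6%. The 2 KO MII libraries stood far apart. Members had a median of 35.2% of the KO GV mean in library 1 and 9.11% in library 2, beside 11.3 and 7.35% in the WT MII libraries. The medians of all genes were 71.9 and 31.5% in the KO and 70.1 and 42.3% in the WT libraries. Over the members the second KO MII library was 1.66 lower than the first in the median, with an SD of 0.81, and genes such as Rpl12 (179 and 10.7) and Rpl3 (226 and 16.5) differed most. Of the 16 called members 7 belong to the large and 9 to the small subunit. The members' median change was -3.46 without KO MII library 1 and -1.51 without KO MII library 2. It was -2.07 without KO GV library 1 and -2.23 without KO GV library 2. The number called here depends on the method and on which libraries enter.

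Rps27a, Rpl26 and Rps15, among the members that fell most in WT, also had the lowest changes of the well-counted members in KO, whereas the KO change of Rpl30 (-2.65) was not called. Rps27a had 21970 and 25521 at KO GV and 1175 and 453 at KO MII (log2 -4.87, SE 0.69, edgeR adjusted p = 0.03). Rpl26 had 62248 and 52662, then 3510 and 1101 (log2 -4.64, SE 0.69, edgeR adjusted p = 0.03). Rps15 (-4.59, edgeR adjusted p = 0.0434) and Rpl24 (-4.24, edgeR adjusted p = 0.0368) followed. The called members with the smallest falls were Rps7 (-3.36), Rpl37 (-3.07), Rpl4 (-2.78) and Rps3a1 (-2.61). Rps29, a zinc-binding small subunit protein, had 7146 and 6894 at KO GV and 6743 and 7016 at KO MII (log2 -0.03, SE 0.53), and Rpl22 went from 2300 and 1477 to 2174 and 910 (-0.29). Across the 83 genes the WT and KO changes, which share no library, correlated at r = 0.64, and over 10931 genes of the same depth at r = 0.69. From GVBD to MII, 30 of 86 KO members were called lower against 7.12% of all genes. This count depends on which libraries enter. The median was -1.95, and it was -3.36 without KO MII library 1 and -1.34 without KO MII library 2. Without KO GVBD library 1 it was -1.91 and without KO GVBD library 2 it was -2.05. Called were, among others, Rps27a (-4.99), Rpl26 (-4.42) and Rpl24 (-4.11) and, at the other end, Rpl15 (-2.55), Rpl30 (-2.5), Rpl17 (-2.45) and Rps4x (-2.22). Rpl10l (-5.7) was also called, on spike-in scaled counts of 74.0 and 34.2 against 2.0 and 0. Rps27l (-0.13) and Rps29 (-0.02) had the smallest changes.

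**Figure D2:**
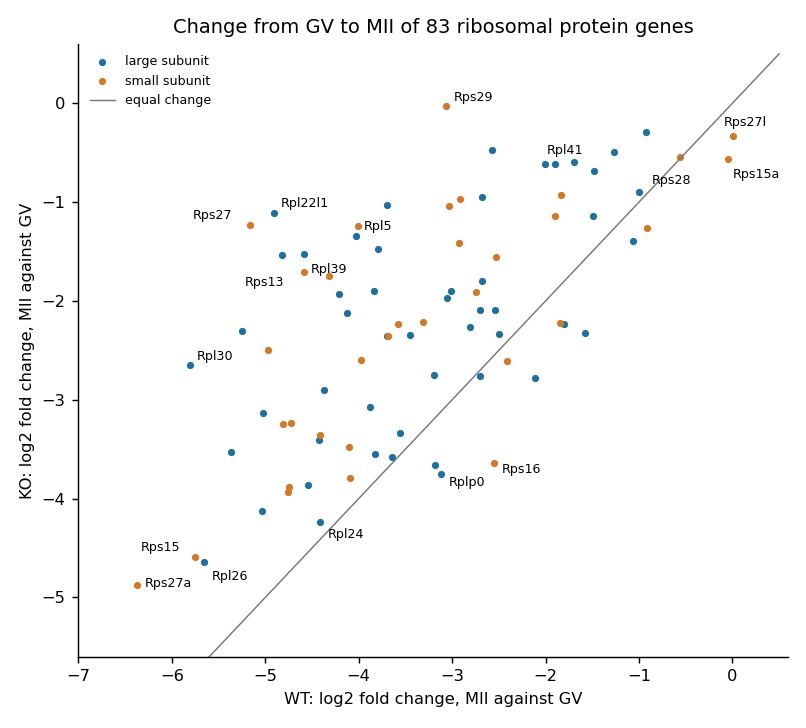
Log2 fold change from GV to MII on the spike-in scale in WT (horizontal axis) and KO (vertical axis) for the 83 members, blue for the large and orange for the small subunit, with the line of equal change. Most points lie above the line, Rps27a, Rps15 and Rpl26 fell strongly in both genotypes, Rps27 and Rpl22l1 lie farthest above the line, and Rps16 and Rplp0 lie below it.

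At MII, 7 members were higher in KO than in WT and 0 were lower, among 86 tested, against 0.501% of 17566 genes called higher and 0.302% lower. The 7 were Rpl22l1, Rps27, Rpl30, Rps13, Rpl39, Rps29 and Rpl5. The median log2 difference was 0.95 over the members and 0.3 over all genes, and 31 of 86 members had both KO libraries above both WT libraries, as had 22.1% of all genes. On CPM 38 of 86 did, against 25.6% of all genes. With TMM scaling the medians were 0.52 and 0 and 6 members were called higher, 4 of them among the 7, against 0.131% of all genes. DESeq2 called 14 higher, against 1.48% of all genes, and all 12 libraries in 1 fit 12, against 0.863%. With replicate numbers as a block 0 of 86 were called, and the share of all genes in that fit is not given. The KO libraries differed here. In KO MII library 1, 72 of the 83 well-counted members were above both WT libraries, as were 71.9% of all genes. In library 2, 30 were above both and 36 below both, against 24.7 and 45.2% of all genes. Without KO MII library 1 the median turned to -0.22, and without library 2 it was 1.42. Leaving out WT MII library 1 gave 1.33 and library 2 gave 0.72, and the 7 calls rest on both of these libraries. KO MII library 1 was also the one of the 4 MII libraries with blood markers at 567 CPM, with all 8 of 8 detected, and their part in the difference was not tested.

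The 7 called genes were higher in both KO libraries than in either WT library. Rps27, a zinc-finger protein of the small subunit, had 288 and 240 spike-in scaled counts in the WT and 5587 and 2506 in the KO MII libraries, a log2 difference of 3.94 (SE 0.9, edgeR adjusted p = 0.00399). Rpl22l1, the paralog of the RNA-binding protein Rpl22, had 140 and 76.6 against 2619 and 860 (log2 4.01, SE 0.95, edgeR adjusted p = 0.00682). Rpl39, a small protein lining the exit tunnel, had 1949 and 1578 against 21762 and 9327 (log2 3.14, SE 0.78, edgeR adjusted p = 0.0125). In these 3 genes the lower KO library stood several-fold above the higher WT library.
Rpl5, which with Rpl11 forms a particle around the smallest RNA of the large subunit, had 3659 and 2720 against 33589 and 13754 (log2 2.89, SE 0.74, edgeR adjusted p = 0.0175). Rps29 had 782 and 868 against 6743 and 7016, the closest agreement between KO libraries of the 7 (log2 3.06, SE 0.83, edgeR adjusted p = 0.0346). Rpl30 had 152 and 180 against 2803 and 678 (log2 3.39, SE 0.92, edgeR adjusted p = 0.0357). Rps13 had 301 and 174 against 3910 and 683 (log2 3.27, SE 0.9, edgeR adjusted p = 0.0411). In none of the 7 did the KO and WT libraries overlap. Rpl23a, at the site where nascent chains leave the ribosome, had 165 and 168 against 2177 and 311, and with one KO library close to WT its difference of 2.9 was not called (SE 0.92, edgeR adjusted p = 0.118). The study picked Rpl39, Rpl23a, Rpl5 and Rps13 on these same samples, so their counts here are no independent evidence of direction. At the lower end of the well-counted members stood Rpl41, with 14994 and 12378 in WT against 9174 and 4016 in KO (log2 -1.05), and Rplp0, with 1168 and 816 against 735 and 266 (-0.99), in both of which the groups did not overlap and neither was called.

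**Figure D3:**
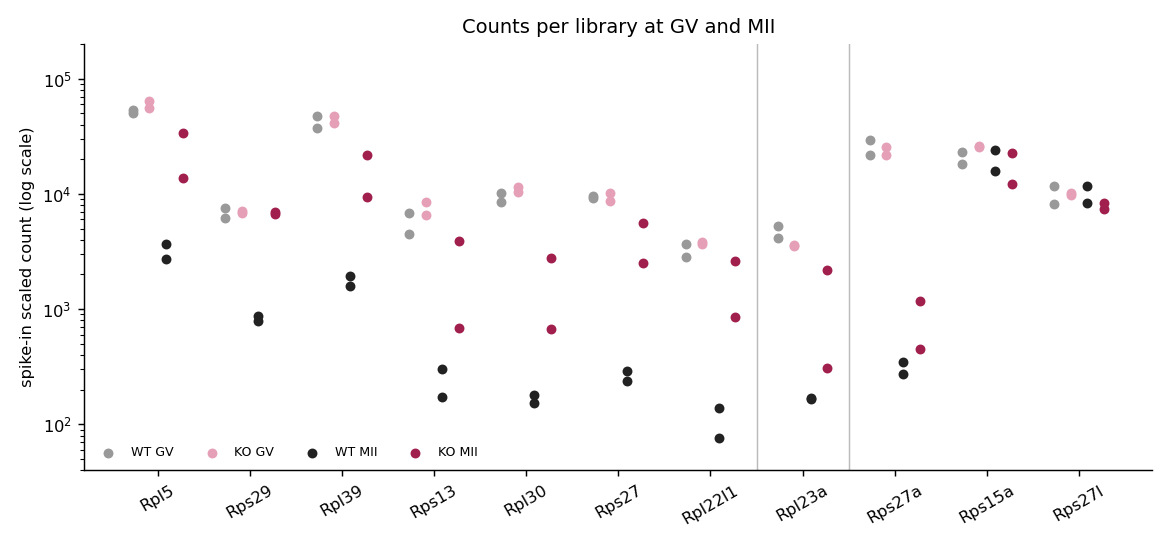
Spike-in scaled counts (log axis) of 11 members in each WT and KO library at GV and MII, 2 points per group. Left of the first line are the 7 members called higher in KO at MII, then Rpl23a, then Rps27a, Rps15a and Rps27l. In the 7 the WT MII points lie below all others, with the narrowest gap in Rps13, between 301 in WT MII and 683 in KO MII. Rps27a is low at MII in both genotypes, and in Rps15a and Rps27l all 4 groups lie close together.

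At GV itself the 4 genes picked by the study did not pass the test, with log2 differences between KO and WT of 0.07 (Rpl39), -0.4 (Rpl23a), 0.21 (Rpl5) and 0.41 (Rps13) and edgeR adjusted p from 0.34 to 0.893. By the same test 0 of 87 members were called at GV, where 0.0977% of 19452 genes were, and 8 members had an unadjusted p under 0.05, 7 higher and 1 lower, against 15.5 and 2.36% of all genes. DESeq2 also called 0, where it called 2.72% of all genes higher and 0.699% lower. The median over the members was 0.03 and over all genes 0.36, and with TMM scaling these were -0.32 and 0, so a direction for the class at GV depends on the scale, and on both scales the members lay 0.33 below the median gene. Of the 87, 25 had both KO libraries above both WT libraries, against 42.2% of all genes, and 6 had both below, against 9.69%. On CPM 39 of 87 members had both KO libraries below both WT libraries, against 17.4% of all genes. Of the well-counted members Rpl41 (-1.83) and Rpl7a (-0.76) had the lowest and Rps4l (0.83) and Rpl9 (0.74) the highest log2 differences.

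The test of the difference itself, whether the GV to MII change differed between the genotypes, called 0 of 88 members and 0% of 20807 genes with edgeR, although 22 members had an unadjusted p under 0.05, against 5.75% of all genes, and 21 of these were positive, against 3.05%, and DESeq2 called 10 higher, against 0.442% of all genes. Rps27 (3.93) and Rpl22l1 (3.8) had the highest differences of the well-counted members, and Rps16 (-1.1) and Rpl6l (-0.75) the lowest. Without KO MII library 1 the median difference turned from 0.94 to -0.25, and without KO MII library 2 it was 1.5.

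From GV to GVBD in WT edgeR called 0 of 88 members, against 0.0511% of 19566 genes. At an unadjusted p under 0.05 there were 23 members lower and 1 higher, against 4.37 and 1.88% of all genes, and DESeq2 called 14 lower and 1 higher, against 1.35 and 0.603%. The members' median was -0.39 against 0.01 over all genes, and 40 of 88 members had both GVBD libraries below both GV libraries against 19.3% of all genes, or 42 of 88 and 16.4% on CPM. Without WT GVBD library 2 the median was -0.02 and without library 1 it was -0.79, and without WT GV library 2 it was -0.46. In 17 of the 83 well-counted members, 12 of the large and 5 of the small subunit, both WT GVBD libraries were under 50% of the WT GV mean, as were 4.51% of the 10969 genes whose mean reached 100 counts. Rpl41 was lowest with 11.6 and 6.36%, then Rps15 (16.8 and 13.3%), Rpl7a (19.9 and 13.2%), Rpl37 (20.1 and 11.5%) and Rpl35 (24.1 and 18.5%). Rpl35 alone went from 103662 and 92172 to 23568 and 18139, which moved it from rank 1 to rank 7 per kilobase. The highest changes of well-counted members were those of Rpl9, at 617 and 919 in GV and 3623 and 1408 in GVBD (log2 1.71), and Rpl12 (0.39). Across the 83 genes the WT change at GVBD ran against GC content (r = -0.4) and with exon length (r = 0.26), where over all genes r was -0.24 and 0.11.

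The same 17 genes were mostly not low in KO GVBD, and the 2 KO GVBD libraries differed. They were chosen for low WT values, so any other group would tend to show them less low. Their WT values and the gap between WT and KO are therefore a description and no test. In KO GVBD library 1, 4 of the 17 were under 50% of the KO GV mean and in library 2 it was 1, with medians of 81.8 and 92.3%, while of the other 66 members 2 and 1 were, and of all 10969 genes 7.92 and 6.66%. Rpl35 had 33240 and 84464 spike-in scaled counts in KO GVBD, or 33.7 and 85.7% of KO GV. On the same percent scale Rps15 stood at 32.5 and 97.1% and Rpl37 at 57.5 and 99.2%, so library 1 was the lower in each of these 3. Rpl7a, at 153 and 133%, and Rpl28, at 127 and 100%, were not below GV in either. Over the 83 genes the KO GVBD change of library 1 correlated with the mean WT change at r = 0.46 and that of library 2 at r = -0.3. EdgeR called 0 of 88 members from GV to GVBD in KO and 0.22% of 19064 genes, 1 member had an unadjusted p under 0.05, against 7.65% of all genes, and DESeq2 called 1 lower, against 1.09% of all genes. Rpl29 (-0.76) was among the lowest changes of the well-counted members, and Rpl32l (0.89) and Rpl7a (0.52) were the highest.

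**Figure D4:**
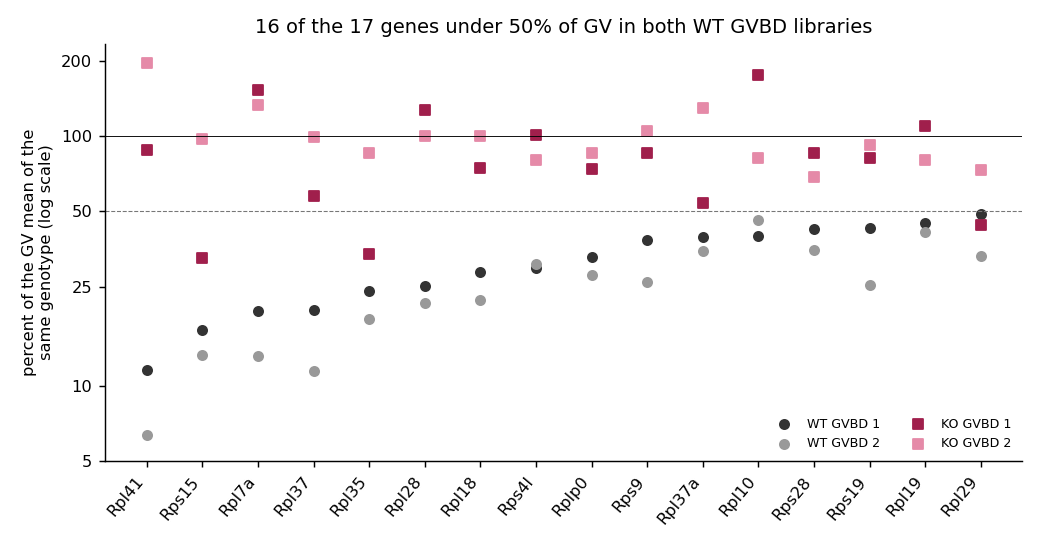
Spike-in scaled count in each GVBD library as a percent of the GV mean of the same genotype (log axis) for 16 of the 17 members chosen because both WT GVBD libraries (circles) were under 50% (dashed line). Of the KO libraries (squares), 3 points of library 1 and 0 of library 2 are under that line. Since the choice used WT values, the gap to KO is only a description. The KO percents of Rpl41 rest on KO GV counts of 18039 and 515.

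At GVBD 3 of 88 members were higher in KO than in WT and 0 lower, against 0.807% of 19462 genes called higher and 1.73% lower. Rpl7a had 455 and 301 spike-in scaled counts in WT and 2069 and 1803 in KO (log2 2.36, SE 0.55, edgeR adjusted p = 0.0221). Rpl41 had 3823 and 2094 against 8148 and 18277 (log2 2.16, SE 0.56, edgeR adjusted p = 0.0445). Rps4l had 49.6 and 51.4 against 299 and 238 (log2 2.41, SE 0.63, edgeR adjusted p = 0.043), and as a processed pseudogene it may share reads with Rps4x. In all 3 both KO libraries lay above both WT libraries. For 32 of 88 members this was so, against 30.3% of all genes, which is near the background. Rpl9 (-1.35) and Rps25 (-0.23) had the lowest differences of the well-counted members. Under TMM scaling 0 members were called, against 0.0103% of all genes higher and 0.139% lower, and the median was 0.12 in place of 0.37. On the spike-in scale the median was 0.76 without WT GVBD library 1 and 0.18 without library 2. The calls rest on both of these libraries. Blood markers were at 1790 and 1990 CPM in the WT GVBD libraries and at 9.99 and 17.7 in KO GVBD, and their part in the difference at GVBD was not tested. Within WT GV, where library 1 had 28.9 and library 2 had 3370, the 83 members differed by a median log2 of -0.23 (library 2 against 1). This sets 1 library against 1 and is not a test of that part.

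The large and the small subunit moved together in the median. Relative to WT GV, the median log2 level of the large subunit members less that of the small was within 0.06 of 0 in each GV and GVBD library, 0.27 and 0.12 in the WT MII pair and -0.2 and -0.24 in the KO pair. Restricted to 42 large and 30 small subunit members with at least 100 counts in every library, these became 0.37 and 0.21 for WT and -0.12 and 0.12 for KO, so that the KO libraries no longer shared a direction. The differences are small beside the spread within a subunit, where the 25th and 75th percentiles of the WT GV to MII change were -4.29 and -2.52 for the large and -4.49 and -2.47 for the small subunit. By calls, 48 of 51 tested large subunit members and 30 of 35 small subunit members were lower in WT, and 4 and 3 were higher in KO at MII.

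Paralog pairs showed the gene-by-gene differences inside single libraries, where a ratio of counts per kilobase needs no spike-in. Rps27l over Rps27 was 1.55 and 1.14 in WT GV, then 0.915 and 0.831 by GVBD. At MII it was 52.1 and 44.1 in WT and 1.91 and 3.81 in KO. Rps27l thus made up 98.1 and 97.8% of the pair in WT MII oocytes, against 65.6 and 79.2% in KO. Rpl22l1 over Rpl22 was 3.4 and 2.4 in WT GV. At MII it was 0.178 and 0.188 in WT and 1.76 and 1.38 in KO, so the order of the 2 genes was turned over in WT MII and not in either KO library.
Rpl39l, a paralog best known from the testis, stood at 0.544 and 0.393 of Rpl39 in WT GV. In KO GV it stood at 0.377 and 0.357, so both KO ratios were below both WT ratios at GV as well. At MII it stood at 0.639 and 0.598 in WT and 0.271 and 0.289 in KO. Rpl7l1, which resembles Rpl7, stood at 0.199 and 0.197 of it in WT GV and, at MII, at 0.469 and 0.402 in WT and 0.162 and 0.118 in KO. Its ratio also stood apart at GV, at 0.321 and 0.299 in KO, so the KO ratio was above WT at GV and below it at MII. In these 4 pairs, though not in every pair compared, the KO and WT libraries did not overlap at MII. The 2 KO MII libraries lay on the same side of WT although their levels differed. How often other gene pairs do so was not counted. Rps27, Rpl22l1 and Rpl39 were called at MII from the same counts, so their ratios are no separate evidence. With 2 libraries against 2 an exact two-sided permutation test cannot go below p = 0.333, so no test is given for these ratios. Rps4l stayed under 4% of the Rps4x and Rps4l pair in every library, Rpl10l under 1% of its pair with Rpl10, and Rpl3l, next to Rpl3, was at 0 in 6 of 12 libraries. At MII Rps4l over Rps4x did not overlap either, at 0.00759 and 0.0175 in WT and 0.0288 and 0.0347 in KO. The pairs of Rpl10l and Rpl3l did overlap there.

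**Figure D5:**
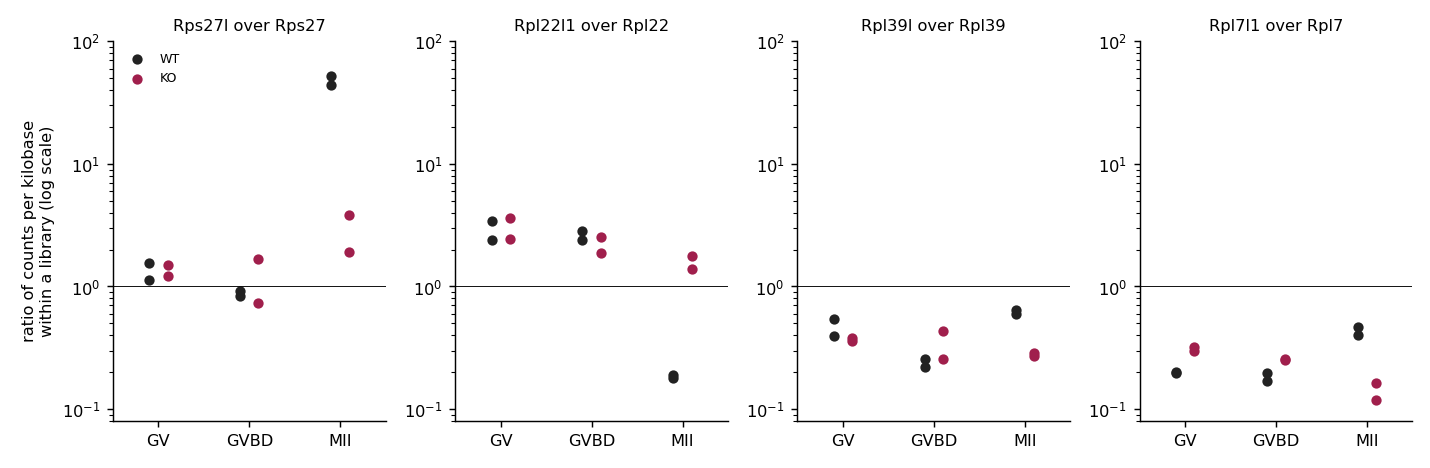
Ratio of counts per kilobase of exon within each library (log axis) of 4 paralogs to their partners at GV, GVBD and MII, 2 WT (black) and 2 KO (red) points per stage, with a line at equal levels. At MII the WT and KO points are apart in each panel, above all for Rps27l over Rps27, at 52.1 and 44.1 in WT and 1.91 and 3.81 in KO.

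Other genes of the translation machinery had different courses. Of 21 genes listed for elongation, initiation and related functions, 12 were lower from GV to MII in WT and 0 higher, at a median of -1.72, where 30.5% of all genes were lower at a median of -1.06. Rpl36al (-4.7) and Eef1d (-4.47) were low, as was Eef1a1 (-3.12), the main elongation factor, while Npm1 (0.05), Nap1l1 (-0.23) and the ribosome-bound scaffold Rack1 (-0.53) were not called. Of these 21 genes 4 were lower in KO from GV to MII, against 3.28% of all genes, and between KO and WT at MII their median difference was 0.52, with 0 at an unadjusted p under 0.05 by edgeR, against 7.32% of all genes. Of 28 genes for ribosome assembly, 7 were lower in WT from GV to MII at a median of -0.78, a share no higher than that of all genes, among them Nhp2 (-4.77) and Eif6 (-3.77), and Ncl (0.06) and Sbds (0.29) were not called. Their median difference between KO and WT at MII was 0.02 over the 27 tested. Mitochondrial ribosomal proteins, whose genes are also nuclear, had, of the 3 lists, the WT median closest to that of the members. Of 78 genes 58 were lower in WT at a median of -2.65 and 14 in KO at -2.28, against the same 30.5 and 3.28%. Between KO and WT at MII 1 was called higher, against 0.501% of all genes, at a median of 0.44.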

How the data were processed

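Pools of mouse oocytes were sequenced in 12 libraries (2 genotypes, 3 stages, 2 libraries each). Adapters were removed by the authors with cutadapt, HISAT2 placed reads on the mouse genome (GRCm38/mm10) joined by ERCC sequences, and they kept uniquely mapped reads. Their processing notes name cutadapt 1.9, HISAT2 2.0.4 and StringTie 1.3.4d, while the study gives other versions of cutadapt and HISAT2. Reads that map equally to a gene and its pseudogene drop out of unique reads. They deposited raw counts per gene. The annotation release and the counting step are not given in the sources used here.

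Counts were fitted with edgeR 4.0.16 (R 4.3.3, quasi-likelihood test) within each comparison, with library sizes set by ERCC totals over 92 spike-ins, filterByExpr, Benjamini-Hochberg adjustment over all tested genes, and calls at an adjusted p under 0.05 and a log2 fold change of at least 1. Library levels used log2 with a pseudocount of 0.5. Alternatives were TMM scaling, no filter, DESeq2 1.42.0, a replicate block, all 12 libraries in 1 fit, and each library left out. The fits were tested on simulated data. Groups came from the sample titles. Members, lists and tests were chosen with earlier results of these data known. Named were called members (the 4 highest and 4 lowest where over 8 were called), the 2 highest and 2 lowest well-counted members per comparison, those the study picked, the extremes per length, paralogs, stalk proteins with Rpsa, and the widest library gaps. Rpl28 and genes named from the other lists fall outside this rule and were chosen after their values were seen. Single values of a few members are not reported here.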

Additional observations from a re-analysis of the deposited data

Results flagged for a closer look

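The genes below had both KO libraries on one side of both WT libraries at 1 stage and on the other side at another, on the spike-in scale. Non-overlap at a single stage was common, with 42.2% of all genes above and 9.69% below at GV, and 22.1 and 10.3% at MII. How many of all genes crossed in this way was not counted, so the list is only a description. For these genes log2 differences of KO against WT are given. Between GV and MII these were Rpl10 (-0.46 and 0.94), Rpl23a (-0.4 and 2.9), Rpl38 (-0.43 and 1.67), Rps19 (-0.62 and 2.16) and Rps24 (-0.08 and 2.5). The difference of their GV to MII changes between the genotypes was 1.4, 3.3, 2.1, 2.78 and 2.58 in that order, with edgeR adjusted p from 0.499 to 0.846, so it passed in 0 of the 5. Between GV and GVBD they were Rpl10 (-0.46 and 1.12), Rpl23a (-0.4 and 0.38), Rpl7a (-0.76 and 2.36) and Rps19 (-0.62 and 0.74). Between GVBD and MII they were Rpl41 (2.16 and -1.05), Rplp0 (1.03 and -0.99) and Rps28 (0.55 and -0.41). For these last 7 pairs the difference between the stages was not tested.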

How the results depend on the processing

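With 2 libraries a group, the counts of called members moved with single libraries and the medians less so, and where a value below differs from the report the cause was not tested. Shares of all genes stand beside the counts in the sections above where they were worked out. Other counts below have no such share. They show how the calls moved with the setting and are no result about the class. TMM scaling gave medians of -0.32 (KO against WT at GV), -1.69 (WT GVBD to MII), -2.38 (WT GV to MII) and -1.2 (KO GV to MII), a WT MII level of -2.38 in place of -3.26, and 0 calls for KO against WT at GVBD, 14 for KO GVBD to MII and 7 for the test of whether the GV to MII change differed by genotype (below, the genotype test). Without the filter there were 5 calls (KO against WT at GVBD), 13 (WT GV to GVBD), 1 (KO GV to GVBD), 50 (KO GV to MII) and 12 (genotype test). DESeq2 gave 5 and 14 (KO against WT at GVBD and MII), 15 and 1 (GV to GVBD in WT and KO), 51 (KO GV to MII) and 10 (genotype test). All 12 libraries in 1 fit gave 0 and 12 (KO against WT at GVBD and MII) and 49 (KO GV to MII). Large less small subunit in WT MII was 0.29 in place of 0.2 for members with at least 100 counts in every library.

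Whether replicate numbers pair the libraries was not settled. Deviations of same-numbered libraries correlated at -0.24 to 0.24 across genes, a measure blind to a shift common to all genes. Over the 83 well-counted members the median log2 difference, library 2 less library 1, ran from -0.04 to -1.66 and was negative in all 6 groups. Over all genes it ran from -0.05 to -1.13. The replicate block gave 1 and 0 calls (KO against WT at GVBD and MII), 8 (WT GV to GVBD), 50 (KO GVBD to MII) and 49 (KO GV to MII). A crossed block, chosen after seeing the data, gave 0 calls for KO against WT at GV and at MII and 6 for KO GVBD to MII.

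Leaving out each library in turn gave these ranges. For KO against WT, calls ran from 0 to 1 both at GV and at GVBD, while they spanned 0 to 9 at MII, with a median from -0.22 to 1.42. From GV to GVBD they ran from 0 to 4 in WT and from 0 to 4 in KO. From GVBD to MII they ran from 32 to 62 in WT and from 0 to 70 in KO, where the median ran from -3.36 to -1.34. From GV to MII the WT median ran from -3.68 to -2.95, and in KO calls ran from 1 to 78 and the median from -3.46 to -1.51. For the genotype test calls ran from 0 to 19 and the median from -0.25 to 1.5. The medians of KO against WT at MII and of the genotype test changed sign without KO MII library 1, at -0.22 and -0.25. Of the 11 genes named for KO against WT at GVBD or MII, 10 lost their call under at least 5 alternatives, and Rpl23a gained it under 2. Of all the values compared, 141 stayed near the reported one, as 51 counts within 1.5 times it and 90 medians or levels within the spread between libraries. Of these, 4 medians near 0 changed sign, KO against WT at GV without KO GV library 1 (-0.07) or WT GV library 2 (-0.04) and KO GV to GVBD with TMM scaling (0.05) or without KO GV library 1 (0.01), and the WT GV to GVBD median ran from -0.79 to -0.02.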
